A study of Mus musculus with 15 samples.

Results

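The immunoglobulin genes described here are the constant genes of the antibody heavy and light chains, the light chain V segments, and Jchain and Mzb1, which serve the assembly of secreted antibody. They were chosen by gene name and by a summed estimated count of at least 30 over all libraries, and 45 of the 153 rows with such names, in a table of 32434 rows, met that minimum. The summed count thus chose the members, and their level over the whole panel is a description only. Just inside the minimum lay Igkv4-50 with a summed count of 31.0 and Igkv4-90 with 31.1. Outside it lay Igkv4-86, the nearest, Igkv4-83 with 22.1 and Ighg2b with 20.6. The 45 members comprise 2 assembly partners, 5 heavy chain constant genes, 5 light chain constant genes, 30 kappa V segments and 3 lambda V segments. Ighe and Ighg2b were under the minimum, and 75 of the 136 kappa V rows held 0 counts in every library.

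RNA of 5 mouse myeloma cell lines, named IL6Myc-1 to IL6Myc-5, was sequenced from total RNA with 3 technical replicate libraries per line. All lines carry the IL6Myc genotype, after the mice from which they were established, and the labels give no treatment, age or promoter. Each line is 1 biological unit without a normal plasma cell for comparison. The edgeR p-values below therefore set differences against the spread between technical replicates. The permutation p-values take technical libraries as units and are no test between lines as biological units. The libraries held 19068543 to 41165599 estimated counts, and levels are in CPM, counts per 1000000 after scaling for library composition, given as mean ± SD (n = 3) or as the values of replicates 1, 2 and 3. The marker genes of plasma cells Irf4, Prdm1, Sdc1, Slamf7, Tnfrsf17 and Xbp1 summed to 3069 to 4076 CPM per library, with none at 0 in any line.

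An antibody is built from paired heavy and light chains. Each developing B cell joins V, D and J segments into 1 productive heavy chain gene and V and J segments into a kappa or a lambda light chain gene, and class switching later places the same heavy chain V region before another constant gene such as that of IgA. A plasma cell clone therefore transcribes mainly 1 heavy chain constant gene and 1 light chain V segment, and monoclonal antibody in blood or urine is a hallmark of myeloma.

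The leading V segment, Igkv4-68, was the same in all 5 lines, and the results turn on it and on its relatives on chromosome 6 (GENCODE M21 on the GRCm38 assembly). Igkv4-59 is its most counted family relative and Igkv8-21 the most counted segment of another family. Over the whole coding sequence Igkv4-59 differs from Igkv4-68 at 15 aligned bases and shares an unbroken run of 130 bases with it, whereas Igkv8-21 differs at 101 of 340 aligned bases.

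Sequences are shown for Iglc2 and Iglc3, lambda constant genes on the minus strand of chromosome 16 in the same annotation, because their levels moved apart between the lines although their sequences are close. Their first 300 coding bases are given 5′ to 3′, from the reference and not from the lines, with capitals at the bases that differ from each other. Over the whole coding sequence they differ at 11 of 317 aligned bases.
Iglc2: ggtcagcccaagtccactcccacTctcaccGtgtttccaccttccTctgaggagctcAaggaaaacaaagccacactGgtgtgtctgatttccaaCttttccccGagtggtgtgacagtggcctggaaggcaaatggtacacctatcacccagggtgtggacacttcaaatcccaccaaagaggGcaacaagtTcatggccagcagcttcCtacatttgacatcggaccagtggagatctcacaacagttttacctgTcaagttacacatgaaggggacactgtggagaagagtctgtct
Iglc3: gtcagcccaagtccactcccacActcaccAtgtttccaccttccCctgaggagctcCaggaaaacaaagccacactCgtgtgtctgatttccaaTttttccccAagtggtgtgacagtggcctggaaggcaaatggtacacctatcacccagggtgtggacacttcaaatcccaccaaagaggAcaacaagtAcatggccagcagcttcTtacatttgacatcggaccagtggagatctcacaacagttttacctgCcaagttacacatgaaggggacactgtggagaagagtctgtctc
Reads from stretches that such copies share can be assigned to either, and the sources used here do not state how they were counted, so values of Iglc2, Iglc3 and the Igkv4 segments are uncertain to that extent. On the same assembly the heavy chain genes lie on chromosome 12 and Jchain on chromosome 5, and 3 of the 30 kappa V members are annotated as pseudogenes.

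Immunoglobulin transcripts, without Jchain and Mzb1, took 11.5 ± 0.114% of the counts of IL6Myc-2, 6.67 ± 0.164% in IL6Myc-5, 6.56 ± 0.154% in IL6Myc-3, 5.04 ± 0.214% in IL6Myc-1 and 4.91 ± 0.270% in IL6Myc-4. IL6Myc-2 was apart from the others, with its 3 libraries above the 12 others (exact permutation test over libraries, two-sided, p = 0.0044, the smallest this design allows, adjusted over the 5 lines p = 0.022). Any line whose 3 libraries are all highest or all lowest reaches that p, so it restates the rank of the libraries. IL6Myc-4 had the lowest mean, with an exact permutation p of 0.022 before and 0.0549 after adjustment. The ribosomal and mitochondrial rows were also highest in IL6Myc-2, at 0.530 to 0.553% of the counts in its libraries and 0.132 to 0.448% in the 12 others. Without those rows the immunoglobulin share was 11.5% in IL6Myc-2 and 4.93% to 6.68% in the other lines. The plasma cell markers did not follow it, with the lowest sum in IL6Myc-2, at 3069 to 3157 CPM, and the highest in IL6Myc-4, at 3936 to 4076 CPM. Of these 6 markers, Sdc1, Slamf7 and Tnfrsf17 were called by the F-test, and Tnfrsf17 was called lower in IL6Myc-2, at 8.80 CPM (-1.48 ± 0.07). Such a call was not particular to IL6Myc-2, since 1 of the 6 was also called lower in IL6Myc-3. In IL6Myc-1 and in IL6Myc-4, 1 marker each was called higher. In these bulk libraries fewer secreting cells and less RNA per cell cannot be told apart.

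Of the 45 members, 24 had at least 1 CPM in at least 3 libraries and were tested, and the other 21 were not. Among the 24, Ighd and Iglc4 reached 1 CPM in the libraries of 1 line only and so had to differ. Igkv4-74 and Igkv4-79 reached it in libraries of 2 lines but would not have passed without IL6Myc-2, so the filter favoured their calls there. The counts below are descriptions and no support for a property of the group. By edgeR's quasi-likelihood F-test over the lines, 23 of the 24 were called, that is, had an adjusted p under 0.05 and at least a log2 difference of 1 between the highest and the lowest line. The background was 32.2% of all 11773 genes tested. The median distance between highest and lowest line was 2.07 on the log2 scale for the members and 0.70 for all genes. Iglc3 was the exception, with a distance of 0.85.

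Against the mean of the other 4 lines, 14 of 24 members were called higher in IL6Myc-2 and 2 lower, where 8.6% and 4.08% of all genes were called. With no filter, so that all 45 members entered, 25 were called higher and 2 lower in that line, against 8.32% and 3.1% of genes. Those 21140 genes include every row with any count, whereas members needed a summed count of at least 30, so the sets are unlike. For members near that minimum, counts in IL6Myc-2 also helped to reach it. IL6Myc-3 had 7 members higher and 1 lower (background 4.6% and 3.05%), and IL6Myc-1 had 0 higher and 4 lower (4.39% and 8.11%). IL6Myc-4 had 1 higher and 6 lower (5.28% and 4.37%), and IL6Myc-5 had 1 higher and 5 lower (4.8% and 3.19%). The 3 libraries of IL6Myc-2 lay above all 12 others for 18 of the 24 members, where 13.8% of genes did. In the pairwise comparison of IL6Myc-2 with IL6Myc-4, 18 members were higher in IL6Myc-2 and 1 lower (background 8.32% and 5.65%). All these comparisons share libraries, so that a high level in IL6Myc-2 also lowers the difference of every other line from its comparators.

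**Figure D1:**
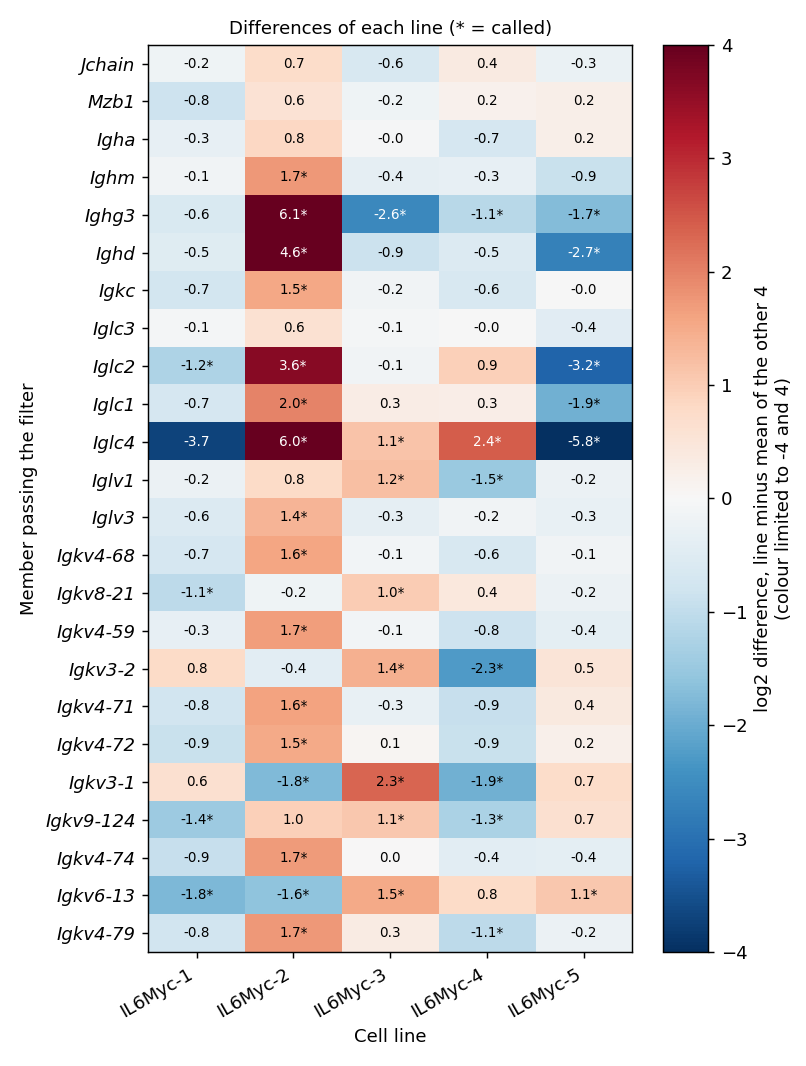
Fitted log2 difference of each line from the mean of the other 4 for the 24 members that passed the filter (rows), by line (columns), with colour limited to -4 and 4 and an asterisk where adjusted p was under 0.05 and the size at least 1. Called increases number 14 in the IL6Myc-2 column and 7 in the IL6Myc-3 column, where 8.6% and 4.6% of all genes were called higher. The filter set the calls of Ighd and Iglc4 in IL6Myc-2 and favoured some Igkv4 calls there, so these counts are descriptions. The call of Iglc4 in IL6Myc-3 was lost with DESeq2. Values of Iglc4 depend on the prior count, since IL6Myc-5 holds 0 counts of it.

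Igha, the constant gene of IgA heavy chains, was measured at 41511, 42358 and 40724 CPM in the 3 libraries of IL6Myc-2 and at 30975, 28757 and 30493 CPM in IL6Myc-5. The libraries of IL6Myc-3 read 25980.2, 24813 and 25909 CPM, those of IL6Myc-1 20386, 22351 and 22344 CPM and those of IL6Myc-4 18078, 16956 and 18807 CPM. Every line thus transcribed Igha at a high level, with IL6Myc-2 highest and IL6Myc-4 lowest and no overlap between neighbours in that order. The neighbours differed at adjusted p from 9.46e-08 to 0.000191 (edgeR), but no line reached a log2 difference of 1 from the mean of the others, and the difference of IL6Myc-2 was 0.83 ± 0.03 (SE). Igha made up 97.1% of the heavy chain constant counts in IL6Myc-2 and 99.1% in IL6Myc-5, the lowest and the highest of the lines.

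Ighm encodes the IgM constant region, the first heavy chain class that a B cell makes. Its libraries read 1190.1, 1183 and 1183 CPM in IL6Myc-2, 419, 426 and 421 CPM in IL6Myc-1, and, next in order, 386, 371 and 382 CPM in IL6Myc-4. They read 374, 369 and 372 CPM in IL6Myc-3 and 273, 278 and 275 CPM in IL6Myc-5. IL6Myc-2 stood clear above the rest and IL6Myc-5 clear below, while IL6Myc-4 and IL6Myc-3 did not differ beyond their spread (adjusted p = 0.39). The log2 difference of IL6Myc-2 was 1.73 ± 0.02 (edgeR adjusted p = 1.38e-19). Relative to Igha in the same library, Ighm gave 28.6 ± 0.566 counts per 1000 Igha counts in IL6Myc-2, 21.2 in IL6Myc-4, 19.5 in IL6Myc-1, 14.5 in IL6Myc-3 and 9.16 ± 0.437 in IL6Myc-5, so that the order at the ends was the same as for the level.

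Transcripts of 2 other classes were highest in IL6Myc-2. Ighg3, the constant gene of IgG3, was at 50.6, 46.4 and 48.1 CPM there, and at 1.39, 1.26 and 0.720 CPM in IL6Myc-1. The other 9 libraries lay between 0.260 and 1.04 CPM. Only the IL6Myc-2 libraries stood apart, and no neighbouring pair among the other 4 lines passed the test (adjusted p from 0.093 to 0.146). The log2 difference was 6.08 ± 0.11 (adjusted p = 3.11e-17). The calls of Ighg3 as lower in IL6Myc-3 (-2.59), IL6Myc-5 (-1.75) and IL6Myc-4 (-1.12) are differences from a mean that contains IL6Myc-2, and that in IL6Myc-4 was lost without its replicate 2 (-0.95). Ighd, the constant gene of IgD, which naive B cells carry beside IgM, read 4.63, 4.78 and 3.80 CPM in IL6Myc-2 and 0.0379 to 0.420 CPM in the other 12 libraries. It passed the filter through the IL6Myc-2 libraries alone, so its call as higher there was set by the filter and no test is given. Ighg2c, an IgG2 constant gene, was not tested and its mean level was 0.311 CPM in IL6Myc-2 and at most 0.173 CPM in another line.

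Markers of other cells were read beside these values. Of 7 T and NK cell markers, 2 were tested. Both were called higher in IL6Myc-2 and also in IL6Myc-4, where 8.6% and 5.28% of all genes were. The list summed to 9.02 to 11.8 CPM in IL6Myc-2, against 0.743 to 6.61 CPM in the other lines. In IL6Myc-2 Cd3d accounted for most of the sum at 7.60 CPM, while Cd4 was at 2.77 CPM there and 2.92 CPM in IL6Myc-4. Gzmb and Klrb1c were at 0 in all libraries. Of 8 myeloid markers 3 were tested. Cd68 at 201 CPM and Itgam at 11.6 CPM were called higher and Mpo lower in IL6Myc-2, with a sum of 209 to 220 CPM against 64.4 to 194 CPM elsewhere, and S100a8 was at 0 in all libraries. The 7 B cell markers summed highest in IL6Myc-4, at 751 to 782 CPM, against 425 to 443 CPM in IL6Myc-2 and 262 to 571 CPM in the others, and the mean of Pax5 was at most 0.845 CPM in any line. The part of these cells in the immunoglobulin values was not tested.

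**Figure D2:**
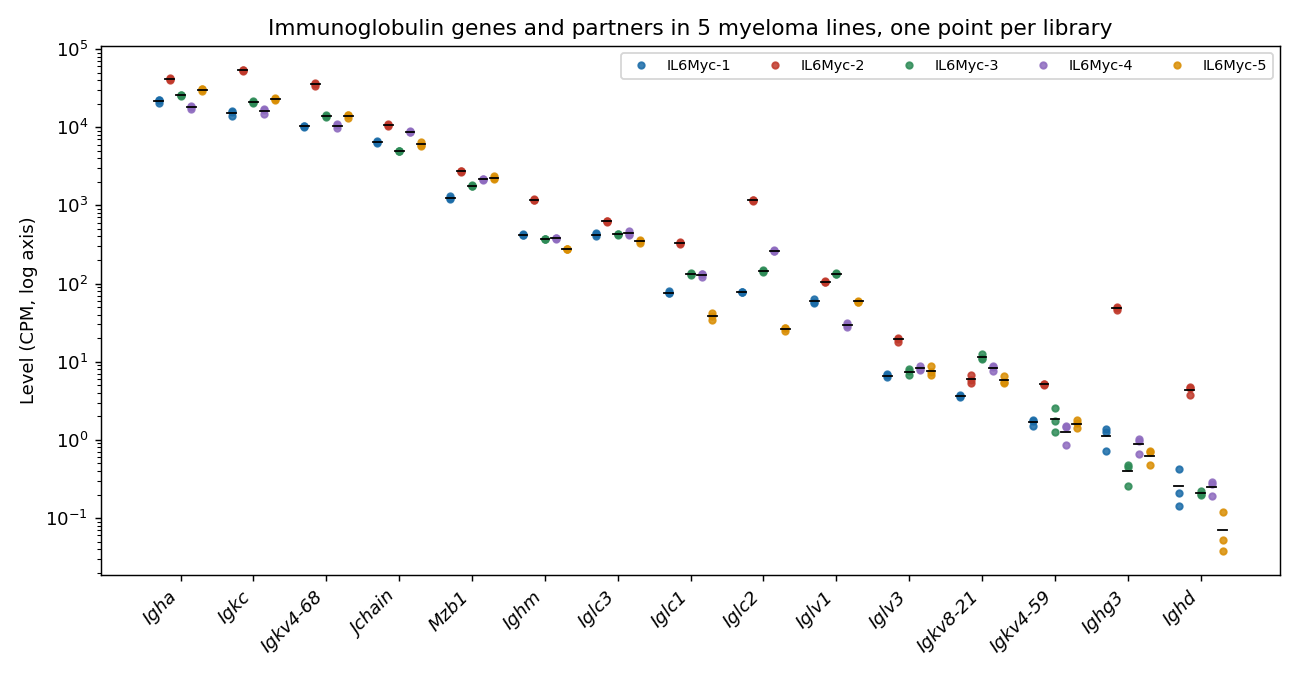
Level of 15 members in CPM on a log axis, with 1 point per library, colours for the 5 lines and a bar for the mean of each line. IL6Myc-2 is highest for Igha, Igkc and Igkv4-68 and stands far above the others for Ighg3 and Ighd, whereas Iglv1 and Igkv8-21 are highest in IL6Myc-3.

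Kappa was the main light chain class of every line. Igkc, the single kappa constant gene, read 53007, 53955 and 53855 CPM in IL6Myc-2, 23299, 22567 and 22681 CPM in IL6Myc-5 and 21566, 20413 and 21269 CPM in IL6Myc-3. It read 16512, 14812 and 17169 CPM in IL6Myc-4 and 13998, 16023 and 15494 CPM in IL6Myc-1. IL6Myc-2 was well above the others, and the libraries of IL6Myc-5 lay above those of IL6Myc-3 without overlap, although that difference did not pass the test (adjusted p = 0.0572). The libraries of IL6Myc-4 and IL6Myc-1 overlapped (adjusted p = 0.115). The log2 difference of IL6Myc-2 was 1.53 ± 0.04 for Igkc, against 0.83 for Igha. The ratio of Igkc to Igha counts was 1.28, 1.27 and 1.32 in the libraries of IL6Myc-2, and its mean was 0.900 in IL6Myc-4, 0.825 in IL6Myc-3, 0.760 in IL6Myc-5 and 0.699 in IL6Myc-1. IL6Myc-2 was thus the line with more Igkc than Igha counts, which are not scaled for length, as the plot of ratios within a library shows.

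The lambda locus, the alternative light chain locus, gave 4.91 ± 0.166% of the light chain constant counts in IL6Myc-4, 3.82 ± 0.0460% in IL6Myc-2, 3.68 ± 0.140% in IL6Myc-1, 3.22 ± 0.110% in IL6Myc-3 and 1.78 ± 0.0566% in IL6Myc-5. The libraries of IL6Myc-4 lay above all others and those of IL6Myc-5 below all others (exact permutation tests, two-sided, each p = 0.0044, adjusted over the 5 lines 0.011). These p-values too restate the rank of technical libraries. The remaining 3 lines gave exact p-values of 0.607 to 0.721.

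Within the lambda constant counts the 4 genes shifted against each other. Iglc2 read 1134, 1187 and 1168 CPM in IL6Myc-2, 260.3, 259 and 268 CPM in IL6Myc-4 and 141, 145 and 147 CPM in IL6Myc-3. The values for IL6Myc-1 were 77.8, 79.0 and 78.8 CPM and those for IL6Myc-5 were 27.0, 24.8 and 27.1 CPM. No 2 lines overlapped, and every step of the order passed the test (adjusted p from 3.06e-17 to 5.03e-12). The log2 difference from the mean of the others was 3.63 ± 0.02 in IL6Myc-2 (adjusted p = 8.28e-23) and -3.20 ± 0.04 in IL6Myc-5 (adjusted p = 6.99e-19), and -1.23 ± 0.03 in IL6Myc-1.

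Iglc3, its near copy, read 621, 637 and 628 CPM in IL6Myc-2, 437, 413 and 471 CPM in IL6Myc-4 and 429, 434 and 413 CPM in IL6Myc-3. The values for IL6Myc-1 were 406, 438 and 427 CPM and those for IL6Myc-5 were 366, 355 and 326 CPM. IL6Myc-2 was again highest and IL6Myc-5 lowest, but the distance was small and the 3 lines between were not told apart at neighbouring steps (adjusted p = 0.422 and 0.928). Iglc2 accordingly took 54.6 ± 0.189% of the lambda constant counts in IL6Myc-2 and 6.37 ± 0.448% in IL6Myc-5, and Iglc3 took 29.5 ± 0.234% and 84.3 ± 1.60%.

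**Figure D3:**
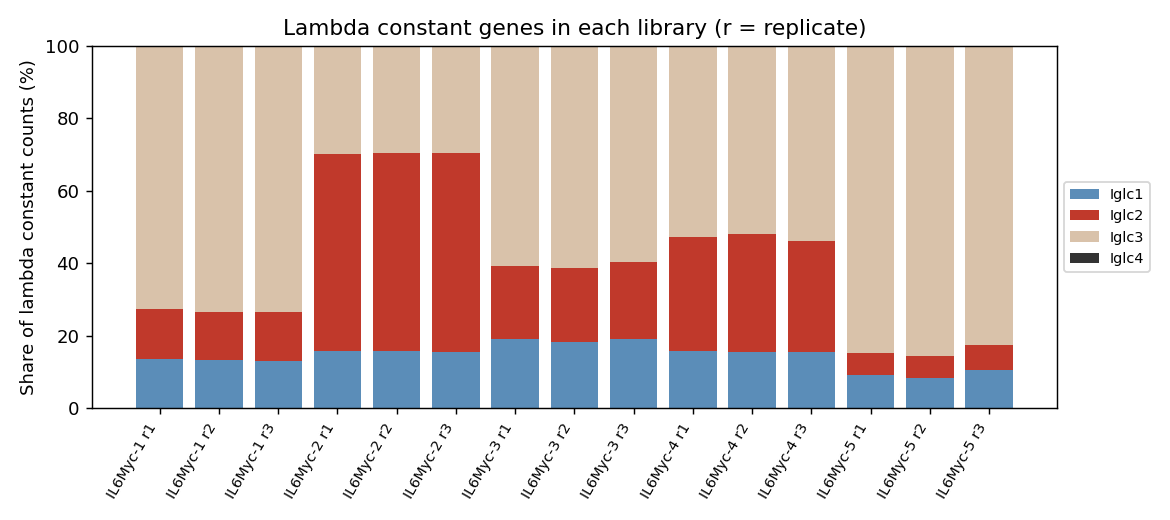
Share of the lambda constant counts (percent, stacked) held by Iglc1, Iglc2, Iglc3 and Iglc4 in each of the 15 libraries. Iglc2 is the largest part in the 3 libraries of IL6Myc-2, at 54.6% on average, and Iglc3 in the other 12, and replicates of a line are close to each other.

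Iglc1, a lambda constant gene less similar to this pair (74.7% identity to Iglc2), was at 333 ± 9.99 CPM in IL6Myc-2, 132 ± 3.24 CPM in IL6Myc-3, 129 ± 6.25 CPM in IL6Myc-4, 76.8 ± 2.13 CPM in IL6Myc-1 and, lowest, 38.3 ± 3.73 CPM in IL6Myc-5. It was called higher in IL6Myc-2 (1.99 ± 0.04) and lower in IL6Myc-5 (-1.91 ± 0.05), the same directions as Iglc2. Iglc4, most like Iglc1 (86.6% identity), was a low transcript at 3.63, 3.71 and 3.06 CPM in IL6Myc-2. Its mean was 0.476 CPM in IL6Myc-4 and 0.234 CPM in IL6Myc-3, with 1 count over the libraries of IL6Myc-1 and 0 counts in IL6Myc-5. Against the level of 3 counts over the libraries of IL6Myc-5, 0.0426 CPM, IL6Myc-2 was at least 81.3-fold higher, a bound for counting error only. Iglc4 counts among the calls of 4 lines, but its fitted differences depend on the prior count and none is given. Its call in IL6Myc-3 was lost without any 1 of 7 libraries, and with DESeq2 (adjusted p = 0.122).

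The most counted lambda V segment had another order of lines than the lambda constant genes, whereas Iglv3 was, like them, highest in IL6Myc-2. Iglv1, the leading lambda V segment, read 135, 132 and 134 CPM in IL6Myc-3, 103, 104 and 106 CPM in IL6Myc-2 and 58.6, 63.8 and 56.4 CPM in IL6Myc-1. It read 58.8, 58.5 and 60.7 CPM in IL6Myc-5 and 29.5, 28.0 and 31.5 CPM in IL6Myc-4. IL6Myc-3 was highest and IL6Myc-4 lowest without overlap, and IL6Myc-1 and IL6Myc-5 did not differ beyond their spread (adjusted p = 0.908). The difference was 1.21 ± 0.03 in IL6Myc-3 (adjusted p = 7.14e-14) and -1.50 ± 0.04 in IL6Myc-4 (adjusted p = 2.52e-14). IL6Myc-4, the line with the highest lambda share by constant genes, was thus the line with the lowest Iglv1.

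Per lambda constant count there were 0.201 ± 0.00290 lambda V counts in IL6Myc-3, 0.162 ± 0.0102 in IL6Myc-5, 0.115 ± 0.00492 in IL6Myc-1, 0.0583 ± 0.00132 in IL6Myc-2 and 0.0457 ± 0.000551 in IL6Myc-4, a 4.40-fold span. For kappa, Igkv4-68 counts per Igkc count ran only from 0.602 ± 0.0275 in IL6Myc-5 to 0.681 ± 0.0357 in IL6Myc-1, a 1.13-fold span. Iglv3 was called in IL6Myc-2, at 19.4 ± 1.17 CPM against means of 6.65 to 8.32 CPM (1.37 ± 0.08). Iglv2, which differs from Iglv1 at 11 of 351 bases, was not tested and its highest mean was 0.272 CPM.

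A single kappa V segment held nearly all V counts in each line. Igkv4-68 read 34155, 36848 and 36164 CPM in IL6Myc-2, 14074, 13579 and 14329 CPM in IL6Myc-3 and 14161, 14117 and 12966 CPM in IL6Myc-5. It read 10785, 9729.8 and 10957 CPM in IL6Myc-4 and 10093, 10451 and 10379 CPM in IL6Myc-1. IL6Myc-2 was far above the others, and the others formed 2 pairs of lines that did not differ beyond their spread (adjusted p = 0.652 and 0.639). The difference of IL6Myc-2 was 1.57 ± 0.03 (adjusted p = 1.85e-16), close to that of Igkc, 1.53 ± 0.04. Igkv4-68 was 99.8% to 99.9% of the kappa V member counts in every line, and the second kappa segment by count was Igkv8-21 in every line.

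Among the heavy chain V segments, which are not members, 5 to 11 of the 76 in the table had counts in a line. Their counts were few, and the most counted segment was the same in all lines. Ighv11-2 held 96.1 ± 0.962% of heavy chain V counts in IL6Myc-1, 95.5 ± 0.571% in IL6Myc-4, 93.8 ± 0.785% in IL6Myc-5, 92.5 ± 2.70% in IL6Myc-2 and 91.5 ± 3.85% in IL6Myc-3. Its level ran from 8.63 ± 0.470 CPM in IL6Myc-1 up to 18.7 ± 0.769 CPM in IL6Myc-4, and it was called by the F-test. Heavy chain V counts came to 1.07 per 1000 heavy chain constant counts in IL6Myc-4 and 0.228 in IL6Myc-2, the highest and lowest of the lines. For kappa there were 0.603 to 0.682 V counts per single Igkc count. The heavy chain V rows thus held few counts beside the heavy chain constant genes, and the cause was not tested. The share of Ighv11-2 does not tell which heavy chain V segment the Igha transcripts carry. A count per V segment does not carry the junction, and whether the lines share a rearrangement was not tested.

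The other 29 kappa V members were minor, and they are taken by family. Each of the 5 tested Igkv4 segments beside Igkv4-68 was called higher in IL6Myc-2, with differences of 1.53 to 1.74, and none was called higher in another line. Of these, Igkv4-74 and Igkv4-79 passed the filter only with the help of the IL6Myc-2 libraries. In IL6Myc-4, 1 of the 5, Igkv4-79, was called lower (-1.05 ± 0.32), a call lost with limma on log2(CPM + 1) (-0.40) and without replicate 2 of that line (-0.84) or replicate 3 of IL6Myc-3 (-0.96). With that limma fit the calls of Igkv4-72, Igkv4-74 and Igkv4-79 in IL6Myc-2 were lost, at 0.83 to 0.96. Igkv4-59, for example, read 5.01, 5.18 and 5.15 CPM in IL6Myc-2 and had means of 1.27 to 1.86 CPM elsewhere. Of the 5 tested segments of other families, 0 were higher in IL6Myc-2 and 2 lower, while all 5 were called higher in IL6Myc-3. Of all genes, 8.6% were called higher and 4.08% lower in IL6Myc-2, and 4.6% higher in IL6Myc-3. The limma fit lost both lower calls in IL6Myc-2 and, except for Igkv3-1, the higher calls in IL6Myc-3.

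As counts per 1000000 Igkv4-68 counts, the 19 other Igkv4 members summed to 619 ± 50.7 in IL6Myc-1, 622 ± 39.9 in IL6Myc-2, 664 ± 103 in IL6Myc-3, 556 ± 102 in IL6Myc-4 and 630 ± 120 in IL6Myc-5, a span of 1.20-fold that is within the spread of replicates. The 10 segments of other families summed to 777 ± 63.6, 314 ± 26.7, 1512 ± 51.8, 1085 ± 38.2 and 890 ± 76.5 in the same order of lines, a span of 4.82-fold. The libraries of all lines overlapped for the family sum, whereas for the other families those of IL6Myc-3 were highest and those of IL6Myc-2 lowest without overlap. The ratio divides by Igkv4-68, which is itself highest in IL6Myc-2. Per 1000000 of all counts, the other families summed to 22.4 ± 0.846 in IL6Myc-3, 9.57 ± 0.880 in IL6Myc-2 and 8.36 ± 0.722 in IL6Myc-1. By that level IL6Myc-2 was not the lowest line.

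Segment by segment, the highest over the lowest line of this ratio was 1.21 to 4.90 for the 19 Igkv4 segments, with a median of 1.70 and 13 under 2. For the 10 others it was 2.99 to 24.5, with a median of 5.05 and 0 under 2. Many of these segments have few counts. In a restriction chosen after seeing the data, to segments with at least 100 summed counts, the medians were 1.53 over 10 Igkv4 segments and 4.95 over 7 others. The 16 Igkv4 segments with a coding sequence differ from Igkv4-68 at 13 to 37 bases and share unbroken runs of 30 to 130 bases with it. The 10 others differ at 87 to 132 bases, with runs of 10 to 21 bases. The part of reads assigned between near-identical copies in these ratios was not tested.

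**Figure D4:**
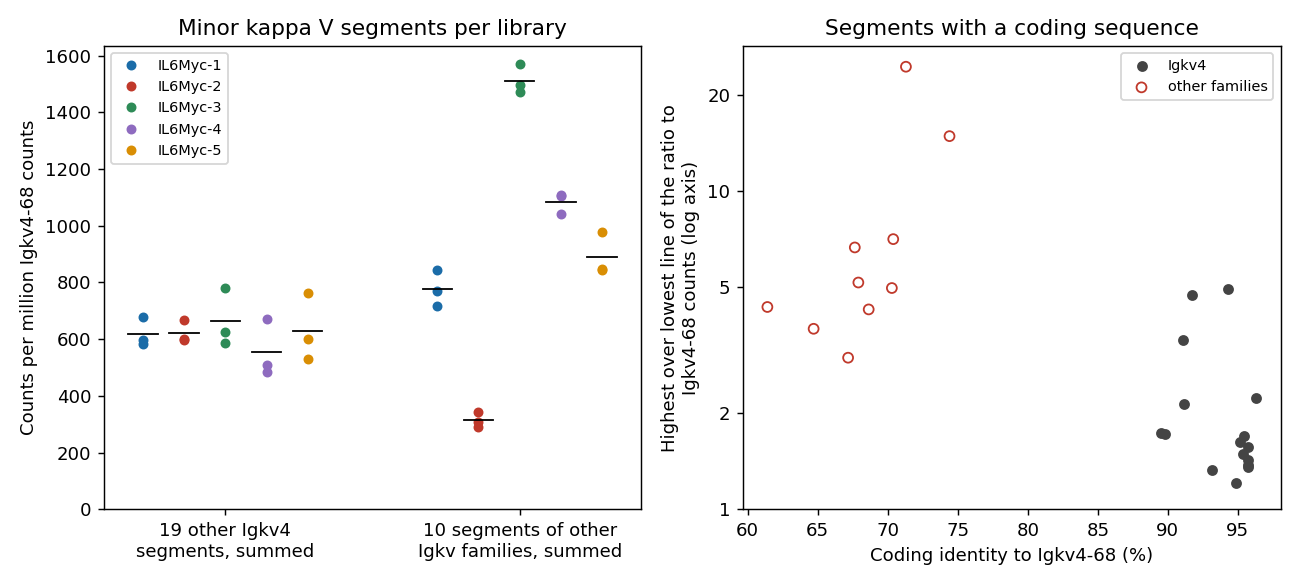
Left, the minor kappa V segments summed, in counts per 1000000 Igkv4-68 counts, 1 point per library with a bar for the mean of the line, for 19 Igkv4 segments and 10 segments of other families. Right, for the 26 of them with a coding sequence, the highest over the lowest line of that ratio (log axis) against coding identity to Igkv4-68 in percent. The Igkv4 sums lie between 556 and 664 on average in all lines, whereas those of the other families run from 314 in IL6Myc-2 to 1512 in IL6Myc-3. The ratio divides by Igkv4-68, which is itself highest in IL6Myc-2.

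Among the other families, Igkv8-21 read 12.4, 11.0 and 11.2 CPM in IL6Myc-3, 8.71, 7.66 and 8.63 CPM in IL6Myc-4 and 5.82, 5.33 and 6.74 CPM in IL6Myc-2. It read 5.49, 6.53 and 5.31 CPM in IL6Myc-5 and 3.67, 3.74 and 3.50 CPM in IL6Myc-1. It was called higher in IL6Myc-3 (1.02 ± 0.08) and lower in IL6Myc-1 (-1.05 ± 0.10), and IL6Myc-2 and IL6Myc-5 did not differ beyond their spread (adjusted p = 0.752). The call in IL6Myc-3 rests near the size threshold, at 0.97 without replicate 1 of that line.

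Igkv3-1 and Igkv3-2, a close pair with 92.8% identity, were both called higher in IL6Myc-3 and lower in IL6Myc-4. Igkv3-1 read 3.10, 3.11 and 2.66 CPM in IL6Myc-3 against means of 0.275 to 1.22 CPM in the others (2.33 ± 0.19, adjusted p = 2.35e-08), and Igkv3-2 read 2.61, 2.59 and 2.99 CPM there (1.41 ± 0.20). In IL6Myc-4 the differences were -1.92 ± 0.28 for Igkv3-1 and -2.28 ± 0.29 for Igkv3-2, and in IL6Myc-2 Igkv3-1 was lower as well (-1.78 ± 0.30). Igkv6-13 was called higher in IL6Myc-3 (1.53) and IL6Myc-5 (1.08) and lower in IL6Myc-1 (-1.79) and IL6Myc-2 (-1.61). Igkv9-124 was higher in IL6Myc-3 (1.08, and 0.90 without replicate 3 of that line) and lower in IL6Myc-1 (-1.44) and IL6Myc-4 (-1.26). The means of these 4 segments were at most 2.96 CPM. With limma on log2(CPM + 1) the calls of Igkv8-21, Igkv3-2, Igkv6-13 and Igkv9-124 in IL6Myc-3 were lost, at 0.90, 0.81, 0.65 and 0.48. Lost too were the lower calls of Igkv8-21 (-0.89), Igkv6-13 (-0.66) and Igkv9-124 (-0.60) in IL6Myc-1. The same held for Igkv3-1 (-0.76) and Igkv6-13 (-0.61) in IL6Myc-2 and for Igkv3-1 (-0.80) and Igkv9-124 (-0.54) in IL6Myc-4. In IL6Myc-5 the higher call of Igkv6-13 was lost (0.39).

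Jchain, the joining chain that links IgA dimers and IgM pentamers, read 10286, 10903 and 10584 CPM in IL6Myc-2, 8675, 8819 and 8668 CPM in IL6Myc-4 and 6573, 6488 and 6198 CPM in IL6Myc-1. It read 5816, 5932 and 6529.8 CPM in IL6Myc-5 and 5015, 4919 and 5001 CPM in IL6Myc-3. IL6Myc-2 was highest and IL6Myc-3 lowest, and IL6Myc-1 and IL6Myc-5 did not differ beyond their spread (adjusted p = 0.1). No line reached the size threshold, with 0.72 ± 0.03 in IL6Myc-2 and -0.64 ± 0.03 in IL6Myc-3. The order differed from that of Igha, since IL6Myc-4 was second for Jchain and last for Igha.

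Mzb1 encodes a chaperone of the endoplasmic reticulum that helps antibody assembly and secretion. It read 2718, 2742 and 2696 CPM in IL6Myc-2, 2244, 2149 and 2343 CPM in IL6Myc-5 and 2164, 2128 and 2144 CPM in IL6Myc-4. It read 1748, 1785 and 1800.4 CPM in IL6Myc-3 and 1190.0, 1304 and 1249 CPM in IL6Myc-1. The lines IL6Myc-5 and IL6Myc-4 did not differ beyond their spread (adjusted p = 0.148), and no line passed the size threshold (0.59 ± 0.03 in IL6Myc-2 and -0.82 ± 0.03 in IL6Myc-1).

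Counted against Igha in the same library, both partners were highest in IL6Myc-4. Jchain gave 48.0, 52.0 and 46.1 counts per 100 Igha counts in its libraries, against means of 29.7 in IL6Myc-1, 25.5 in IL6Myc-2, 20.3 in IL6Myc-5 and 19.5 in IL6Myc-3. Mzb1 gave 11.4 to 12.5 counts per 100 Igha counts in the libraries of IL6Myc-4, against means of 5.75 to 7.47 in the other lines. No library of another line reached those of IL6Myc-4 for either ratio. These ratios were chosen with the levels known and carry no test.

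**Figure D5:**
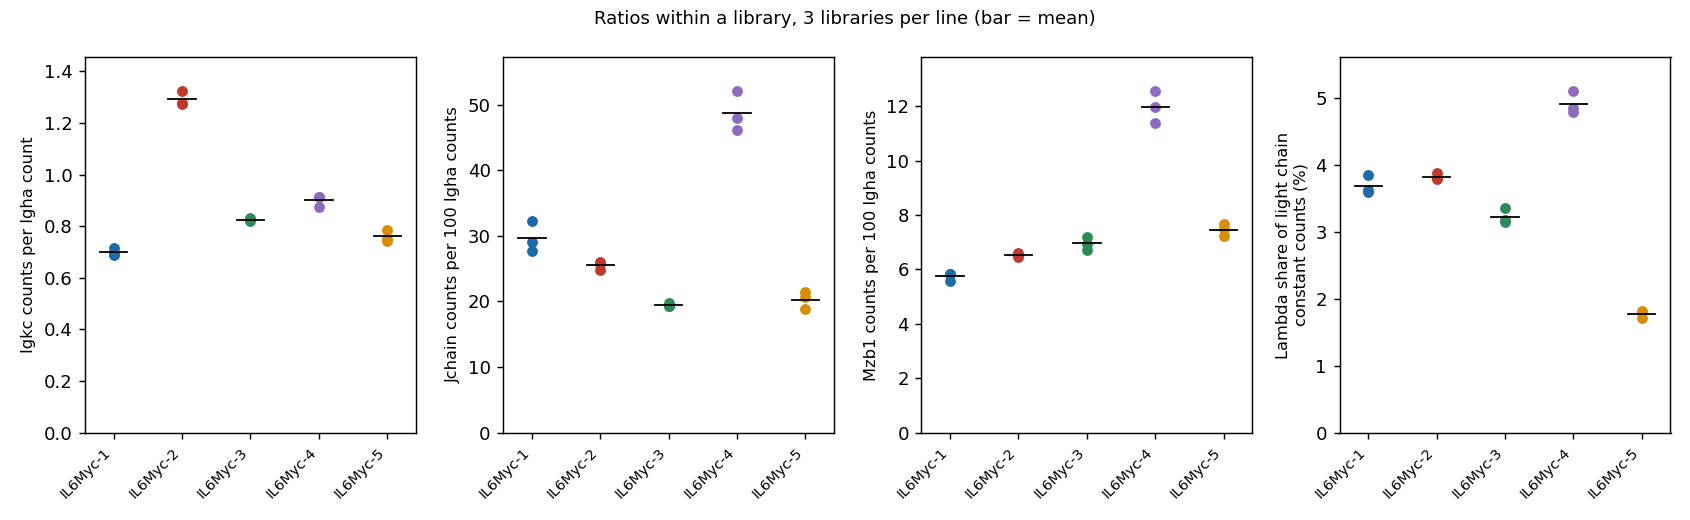
Ratios within a library for the 5 lines, with 1 point per library and a bar for the mean of 3 libraries: Igkc per Igha count, Jchain and Mzb1 per 100 Igha counts, and the lambda share of the light chain constant counts in percent. IL6Myc-2 is highest for the first, at 1.29, and IL6Myc-4 for the other 3, while IL6Myc-5 has the lowest lambda share, at 1.78%.

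Genes that act on immunoglobulin expression were read from lists beside the members. Of 15 tested transcription factors of immunoglobulin genes, 2 were called higher in IL6Myc-2, where 8.6% of all genes were, a share near that background. They were Ikzf3, which encodes the lymphoid factor Aiolos, at 48.1 ± 5.74 CPM (3.37 ± 0.09, adjusted p = 2.88e-15), and Runx3, a Runt family factor, at 51.9 ± 1.87 CPM (1.15 ± 0.06). In IL6Myc-4 Ebf1, a B cell specification factor, was called higher (1.27 ± 0.06), as was Ikzf3 (1.01 ± 0.10). In IL6Myc-1 Ebf1 (-1.42 ± 0.08) and Ikzf3 (-1.87 ± 0.13) were called lower, and in IL6Myc-3 Ikzf3 alone (-1.95 ± 0.13).

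Of 22 genes for folding and assembly in the endoplasmic reticulum, 2 were called higher in IL6Myc-2 and 20 were not called, again a share near the background of 8.6%. Sel1l, an adaptor of the machinery that removes misfolded proteins, stood at 2166 ± 17.2 CPM there (1.14 ± 0.03) and Ero1b, an oxidase that supports disulfide bond formation, at 410.4 ± 13.9 CPM, just past the size threshold. In IL6Myc-1 Ero1b (-1.16 ± 0.04) and Dnajc3, a co-chaperone (-1.09 ± 0.03), were called lower. The median difference of the list was 0.14 in IL6Myc-2 and -0.48 in IL6Myc-1. Of the 10 genes for the processing of secretory heavy chain mRNA no member reached a log2 difference of 1 between the highest and the lowest line, and the median was 0.47.

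Of 9 tested genes of V(D)J recombination and class switching, 1 was called by the F-test, against 32.2% of all genes. Among the chains that signal for the membrane antibody, Cd79a was called higher in IL6Myc-2, at 2.78 ± 0.607 CPM (1.91 ± 0.20), and Cd79b in IL6Myc-4, at 564 ± 20.5 CPM (1.22 ± 0.04). Pigr, the receptor that carries dimeric IgA across epithelia, was at most 0.225 CPM in any line.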

How the data were processed

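The deposited table is named for TPM, but its values were taken here as estimated counts, an inference from the values themselves. Its columns sum to 19068543 to 41165599, and 30.8% to 54.3% of values above 0 and under 1.5 lie within 0.02 of 1. Per the submitters' processing notes, Trim Galore 0.4.0, DESeq2 and GRCm39 were used, and libraries were TruSeq Stranded Total RNA per the labels' protocols. No source used here names the aligner or the quantifier.

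Estimated counts were rounded and tested in edgeR 4.0.16 (R 4.3.3), quasi-likelihood, with TMM scaling, line as the factor over all 15 libraries, a filter of 1 CPM in 3 or more libraries (11773 genes), Benjamini-Hochberg adjusted p under 0.05 and absolute log2 difference of at least 1. Alternatives were DESeq2 1.42.0, limma 3.58.1 on log2(CPM + 1), no filter, 5 CPM, scaling without immunoglobulin rows, a replicate block and leaving out each library. Replicates were checked (15 pairs within lines, chi-square per degree of freedom 4.33 to 18.4, 0 identical). Tested on simulated data for IL6Myc-1 over 11773 genes, 97 of 100 genes changed 2-fold and 100 of 100 changed 4-fold were significant, of which 49 and 100 passed the size threshold. Names were matched to GENCODE M21 symbols (45 of 45), and no coordinates are given because that annotation is on GRCm38. Ighg1 and Ighg2a were not analysed here. Named are the partners, constant genes and leading V segments, the 3 largest called differences of each line, and up to 4 called genes per list and line. Igkv4-59, Igkv8-21 and Pigr were added after their values were seen. Members and lists were chosen with earlier results of these data known.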

Additional observations from a re-analysis of the deposited data

How the results depend on the processing

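The counts of called members were the same under scaling without immunoglobulin rows, and DESeq2 kept them within 1.5 times. With limma on log2(CPM + 1), which shrinks low levels, the counts fell to 1 in IL6Myc-1, 3 in IL6Myc-3, 3 in IL6Myc-4 and 3 in IL6Myc-5. In that fit Iglc4 turned to -0.38 in IL6Myc-3 and -0.058 in IL6Myc-4. IL6Myc-2 lost the higher calls of Igkv4-72 (0.96), Igkv4-74 (0.93) and Igkv4-79 (0.83). It also lost its lower calls of Igkv3-1 (-0.76) and Igkv6-13 (-0.61). With no filter, IL6Myc-2 had 27 called members. At 5 CPM, where fewer members are tested, counts were 12 by the F-test, 2 in IL6Myc-1, 7 in IL6Myc-2, 3 in IL6Myc-3, 2 in IL6Myc-4 and 3 in IL6Myc-5. The lambda share from V segments instead of constant genes was 0.639% in IL6Myc-1, 0.346% in IL6Myc-2, 0.997% in IL6Myc-3, 0.361% in IL6Myc-4 and 0.486% in IL6Myc-5, and the cause of the different order was not tested. With all kappa V rows as denominator Igkv4-68 took 99.9% in IL6Myc-2.

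Leaving out 1 library at a time gave 21 to 23 called members by the F-test, 4 to 6 in IL6Myc-1, 14 to 17 in IL6Myc-2, 6 to 8 in IL6Myc-3, 6 to 8 in IL6Myc-4 and 4 to 6 in IL6Myc-5. Without replicate 2 of IL6Myc-4, Ighg3 fell to -0.95 there. Iglc4 in IL6Myc-3 lost its call without any 1 of 7 libraries and with DESeq2 or no filter. Replicate numbers did not pair the libraries: over 30 same-numbered pairs the correlation of deviations ran from -0.084 to 0.11, with 1 over 0.1, and with the replicate block the counts stayed at 23 by the F-test and at 4, 16, 8, 7 and 6 in IL6Myc-1 to IL6Myc-5. Depth limits the 21 members that were not tested, and at 0 counts Iglc4 in IL6Myc-5 could be as high as 0.0426 CPM.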
